A study of Mus musculus with 24 samples.

Results

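The lysosome is the acidic compartment in which cells break down proteins, glycans, glycosaminoglycans and lipids that reach it from the Golgi, from the cell surface or by autophagy. Its hydrolases are made in the endoplasmic reticulum, pass the Golgi and are sorted to the lysosome, where the vacuolar proton pump (V-ATPase) holds the low pH they need, and the transcription factors Tfeb and Tfe3 induce many of these genes during fasting. Here 50 such genes, chosen by symbol, were followed through fasted mouse liver: 6 lysosomal membrane proteins, 10 proteases, 10 glycosidases, 5 sulfatases, 6 lipid hydrolases, activators and carriers, progranulin, 10 subunits and accessory proteins of the V-ATPase, and Tfeb and Tfe3. All 50 were found once among the 54532 rows of the count table, and all 50 passed the filter on low counts in every comparison.

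RNA was sequenced from whole livers of C57/BL6J males fasted for 24 h, 4 livers in each of 6 genotype groups and 24 in all. Rab30 encodes a small GTPase of the Golgi, and Cpt2 encodes the mitochondrial carnitine palmitoyltransferase that long-chain fatty acids need for β-oxidation. Rab30L-/- and Cpt2L-/- livers lacked 1 of these genes in hepatocytes through Cre recombinase driven by the albumin promoter, and DKO livers lacked both. The ff;ff controls carried floxed Rab30 and Cpt2 and are labelled as littermates of the DKO animals. For other measurements the study set Rab30L-/- and Cpt2L-/- against littermates floxed for the 1 gene, which are not analysed here, so that the ff;ff livers are not labelled as littermates of either single knockout. Rab30KO animals lacked Rab30 exon 4 in every tissue, and their controls were wild-type littermates (Rab30 Ctrl). Other liver cells keep both genes in the Cre lines, and in whole liver fewer cells of a type and less RNA per cell cannot be told apart.

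Libraries held 11801027 to 24497738 counts. Levels are given as CPM (read counts scaled to library size, with TMM over the 24 libraries) between livers and as the deposited FPKM between genes, since FPKM is per gene length. Differences, in parentheses after a gene, are log2 fold changes ± SE from the quasi-likelihood test of edgeR, adjusted over all tested genes by the Benjamini-Hochberg method, and a gene was called higher or lower at an adjusted p under 0.05 and a change of at least 1.2-fold. Whole-gene counts of Rab30 and Cpt2 include exons outside the deletions and do not check the genotypes. Rab30 stood at 122, 129, 149 and 188 CPM in Cpt2L-/-, 101, 129.7, 183 and 231 in DKO, 25.9, 31.2, 44.6 and 44.6 in ff;ff and 10.4, 12.3, 19.2 and 26.6 in Rab30L-/-. In the whole-body model it stood at 5.39, 9.60, 12.4 and 17.4 in Rab30KO and 6.64, 8.54, 11.3 and 30.1 in Rab30 Ctrl, with overlap. Cpt2 stood at 95.3, 116, 128 and 167 in Cpt2L-/-, 96.1, 97.7, 106 and 120.0 in DKO, 128, 128, 133 and 139 in ff;ff and 169.7, 214, 226 and 268 in Rab30L-/-. Every Rab30L-/- liver was thus above every ff;ff liver for Cpt2 (0.73 ± 0.15, adjusted p = 0.0772), and every DKO liver was below both. The summed CPM of 6 hepatocyte markers ran from 94035 to 122752 in ff;ff, from 80373 to 94277 in Rab30L-/-, from 47777 to 56784 in Cpt2L-/- and from 62078 to 76147 in DKO, where albumin fell (log2 fold change against ff;ff −1.41 ± 0.19 in Cpt2L-/- and −0.87 ± 0.19 in DKO). Each list of markers of the other liver cells was detected in all 6 groups, with no marker at 0 in all 4 livers of a group.

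Many lysosomal genes carry near their start the 8 letters TCACGTGA, the core of the element through which Tfeb and Tfe3 are known to act, and the sequences below show where it lies in the members. In RefSeq promoter windows of GRCm38.p6 (250 bases before to 50 after a start), 42 of the 50 members had a window. The 8 letters, which read the same on both strands, were in 7 of these 42 (16.7%) and in 1.12% of all 27025 genes with a window, and the 6 letters CACGTG inside them were in 16 of 42 (38.1%) and 8.09% of all. The motif was defined on lysosomal promoters, so these shares are a description, and a match is not evidence of binding. Each line gives a member and 30 bases, 5′ to 3′ on the gene's strand, with the 8 letters in capitals:
Atp6v0d1: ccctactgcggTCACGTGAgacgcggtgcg
Atp6v1a: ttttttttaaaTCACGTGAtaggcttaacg
Cln3: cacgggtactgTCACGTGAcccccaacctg
Ctsa, first site: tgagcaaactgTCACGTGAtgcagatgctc
Ctsa, second site: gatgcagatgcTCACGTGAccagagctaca
Ctsd: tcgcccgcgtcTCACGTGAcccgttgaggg
Gla, distal site: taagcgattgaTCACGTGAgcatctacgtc
Gla, proximal site: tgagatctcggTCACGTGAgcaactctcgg
Mcoln1: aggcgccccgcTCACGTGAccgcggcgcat
In Ctsa and Cln3 the window with the motif belongs to the second of their annotated starts. The motif began 4 bases before the start in Atp6v0d1 (chr8:105566050-105566079, minus strand), 46 before it in Mcoln1 (chr8:3500462-3500491, plus strand), 99 before it in Ctsd (chr7:142387908-142387937, minus strand) and 132 before it in Atp6v1a (chr16:44139373-44139402, minus strand). In Cln3 it began 122 bases before the second start (chr7:126583340-126583369, minus strand), in Ctsa 13 bases before the start and at base 5 counted from it (chr2:164833749-164833778 and chr2:164833766-164833795, plus strand), and in Gla 228 and 195 bases before the start (chrX:134601215-134601244 and chrX:134601182-134601211, minus strand).

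Per gene length, the most abundant members over all livers were prosaposin (Psap), the precursor of the activators that sphingolipid hydrolases need, at a mean of 239 FPKM over the 24 livers, the membrane glycoprotein Lamp1 at 221 and cathepsin L (Ctsl) at 195. Cathepsin Z (Ctsz, 152), progranulin (Grn, 120), cathepsin D (Ctsd, 108) and the acid lipase Lipa (91.9) followed. The order differed by group: Psap led in Cpt2L-/- (274) and DKO (282), Ctsl in ff;ff (278) and Rab30L-/- (249), and Lamp1 in Rab30 Ctrl (233) and Rab30KO (262). The least abundant were the sulfatase Arsb at 1.14, the α-galactosidase Gla at 1.39, the sulfatase Sgsh at 1.46 and Tfeb at 1.83 FPKM. Within a group the coefficient of variation of a member's CPM had a median of 10.9% in Cpt2L-/-, 11.1% in DKO, 13.6% in Rab30L-/- and 16.4% in ff;ff, and of 16.7% in both Rab30 Ctrl and Rab30KO. Part of the ff;ff spread came from replicate 3, whose Ctsl (3236 CPM against 1166 to 1343 in the other ff;ff livers) and Tfe3 (41.4 against 14.9 to 23.6) were the highest of that group, while its Manba was the lowest (7.74 against 17.03 to 21.4).

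**Figure D1:**
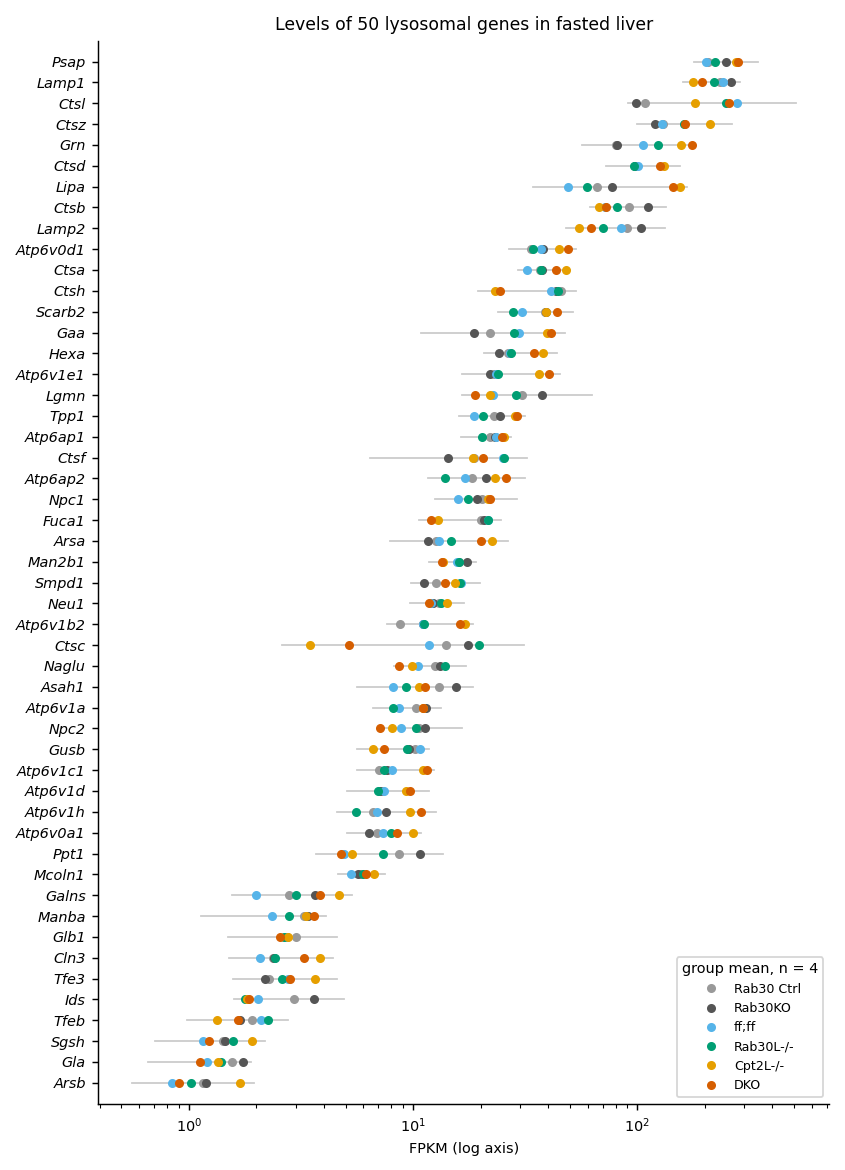
Deposited FPKM (log axis) of the 50 members, sorted by their mean. Points are group means of 4 livers and grey lines run from the lowest to the highest of the 24 livers. Group means of Lipa and Ctsc separate Cpt2L-/- and DKO from the other 4 groups.

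Cpt2L-/- was compared with ff;ff to ask what loss of hepatic fatty acid oxidation did to these genes in the fast. In Cpt2L-/- livers 16 of the 50 members (32%) were called higher, against a background of 11.9% of the 13270 genes tested, and 5 (10%) were called lower, against a background of 11.9%. The 16 were Lipa, Grn and Psap, 4 of 5 sulfatases, 4 of 10 V-ATPase genes, the proteases Ctsa, Ctsz and Tpp1, the glycosidase Hexa and the membrane protein Cln3, and the 5 were Ctsc, Ctsh, Fuca1, Gusb and Lamp2. The members' median log2 fold change was 0.35, and that of all genes −0.003. In all 21 called members the 4 Cpt2L-/- livers lay outside the range of the 4 ff;ff livers, as they did for 29 of the 50 members, against a background of 26.7% of all genes tested. Scaled by library totals alone, 30 members were called higher and 4 lower, with the median of all genes then at 0.28. Without Cpt2L-/- replicate 4, 10 were called higher and 4 lower. The members and the lists below were chosen with earlier results of these data known, so their shares beside the backgrounds are a description.

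Lipa (chr19:34492318-34527474), the acid lipase that frees fatty acids and cholesterol from lipids delivered to the lysosome, rose most. It stood at 99.7, 141, 153 and 181 CPM in the 4 ff;ff livers and at 423, 428, 488 and 489 CPM in the 4 Cpt2L-/- livers. The lowest Cpt2L-/- liver was above 2 times the highest ff;ff liver, and the fitted rise was 3.16-fold (1.66 ± 0.18, adjusted p = 3.65e-05). Of the other 5 members of its class, Psap rose (0.43 ± 0.14, adjusted p = 0.0382), while the acid ceramidase Asah1 (0.38 ± 0.18), the thioesterase Ppt1 (0.11 ± 0.17), the sphingomyelinase Smpd1 (−0.10 ± 0.14) and the cholesterol carrier Npc2 (−0.14 ± 0.16) did not pass. Grn (chr11:102430315-102437048), a secreted glycoprotein that is cleaved to granulins in the lysosome, stood at 317, 319, 385 and 428 CPM in ff;ff and 459.5, 508, 582 and 599.6 in Cpt2L-/- and rose (0.56 ± 0.16, adjusted p = 0.0198).

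The sulfatases, which remove sulfate groups from glycosaminoglycans and sulfated lipids, rose in 4 of 5 cases, with a median log2 fold change of 0.79, beside the background of 11.9%. In DKO 2 of 5 rose against ff;ff (median 0.08, background 7.87%) and 1 of 5 against Rab30L-/- (median 0.04, background 14.9%), a comparison with no library in common. Galns (chr8:122578242-122611463) was at 4.02, 4.72, 5.16 and 6.79 CPM in ff;ff and 10.5, 11.02, 13.4 and 13.99 in Cpt2L-/- (1.23 ± 0.20, adjusted p = 7.62e-04). Arsb (chr13:93771630-93943016) was at 3.28, 4.54, 5.79 and 6.47 CPM in ff;ff and 7.58, 9.67, 11.6 and 11.6 in Cpt2L-/- (0.996 ± 0.24, adjusted p = 0.00881). Arsa (chr15:89472476-89477425) was at 42.2, 47.4, 48.4 and 50.4 and 63.5, 76.1, 93.2 and 95.8 CPM (0.79 ± 0.16, adjusted p = 0.00262). The 2 groups of livers did not overlap for any of these 3 genes. Sgsh also rose (0.71 ± 0.21, adjusted p = 0.0264), and Ids had a log2 fold change of −0.17 ± 0.18.

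Among the membrane proteins Cln3 (chr7:126571207-126585817), mutated in a neuronal ceroid lipofuscinosis, stood at 8.56, 11.8, 13.01 and 14.1 CPM in ff;ff and 18.96, 19.01, 24.98 and 25.4 in Cpt2L-/-, and rose (0.88 ± 0.18, adjusted p = 0.00362). The abundant structural glycoprotein Lamp2 (chrX:38401357-38456454), needed for the fusion of autophagosomes with lysosomes and for chaperone-mediated autophagy, stood at 589, 708, 733 and 1143 CPM in ff;ff and 457, 494, 563 and 568 in Cpt2L-/-, and fell (−0.62 ± 0.20, adjusted p = 0.0380). The lowest ff;ff liver was just above the highest Cpt2L-/- liver. Its relative Lamp1 stood at 511, 581, 679.7 and 753 CPM and 419.8, 469, 469 and 519 CPM, with overlapping livers, and did not pass (−0.44 ± 0.16, adjusted p = 0.0600). It passed as lower by DESeq2, in the fit over 24 libraries and without ff;ff replicate 3, with adjusted p from 0.0193 to 0.480 over the alternatives. The cholesterol exporter Npc1 (0.44 ± 0.22), the glucocerebrosidase receptor Scarb2 (0.35 ± 0.15) and the calcium channel Mcoln1 (0.35 ± 0.14) did not pass either.

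The proteases split. The serine carboxypeptidase Ctsa, which also protects Glb1 and Neu1, was at 135, 147, 156 and 162 CPM in ff;ff and 201, 232, 233 and 233 in Cpt2L-/- and rose (0.57 ± 0.13, adjusted p = 0.00565), as did Ctsz (0.71 ± 0.18, adjusted p = 0.0101) and the tripeptidyl peptidase Tpp1 (0.60 ± 0.14, adjusted p = 0.00612). The dipeptidyl peptidase Ctsc (chr7:88278085-88310888), which activates the serine proteases of immune cell granules, was at 37.7, 57.00, 64.6 and 111 CPM in ff;ff and 14.9, 17.4, 23.1 and 24.6 in Cpt2L-/-, and fell 3.40-fold (−1.76 ± 0.29, adjusted p = 0.00100). The aminopeptidase Ctsh (chr9:90054152-90076089) was at 155, 164, 195 and 219 and 96.2, 96.9, 100.3 and 121 CPM and fell (−0.83 ± 0.15, adjusted p = 0.00113). The aspartic protease Ctsd was at 209, 221, 246 and 252 CPM in ff;ff and 274, 294, 295 and 364 in Cpt2L-/-, and the cysteine protease Ctsf at 43.7, 44.5, 46.1 and 61.97 and 33.1, 33.7, 36.97 and 41.4 CPM. In both the livers of the 2 groups did not overlap, but neither passed: Ctsd had 0.39 ± 0.14, adjusted p = 0.0592 and Ctsf had −0.45 ± 0.15, adjusted p = 0.0518. Ctsd passed as higher with library totals alone, by DESeq2 and in the fit over 24 libraries, with adjusted p from 0.00405 to 0.160 over the alternatives. Ctsf passed as lower with DESeq2 size factors, by DESeq2 and without replicate 1 of either group, with adjusted p from 0.0292 to 0.443. Ctsb (−0.08 ± 0.15), Ctsl (−0.62 ± 0.30) and Lgmn (−0.04 ± 0.18) did not pass.

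Of the glycosidases, the fucosidase Fuca1 (chr4:135920735-135940311) was at 61.7, 64.6, 74.1 and 77.8 CPM in ff;ff and 36.7, 40.7, 41.5 and 49.5 in Cpt2L-/- and fell (−0.74 ± 0.14, adjusted p = 0.00199). The β-glucuronidase Gusb (chr5:129989011-130003049) was at 41.8, 48.1, 50.1 and 52.5 and 25.1, 29.7, 32.2 and 32.2 CPM and fell (−0.70 ± 0.14, adjusted p = 0.00257). Hexa, an enzyme of ganglioside breakdown, rose (0.48 ± 0.14, adjusted p = 0.0218), and the other 7 glycosidases did not pass, with log2 fold changes from −0.21 (Man2b1) to 0.50 (Manba).

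All 10 V-ATPase members had a positive log2 fold change in Cpt2L-/-, under each of the 3 scalings tried, with a median of 0.44. The 4 called were the cytosolic V1 subunits Atp6v1e1 (0.63 ± 0.13, adjusted p = 0.00359), Atp6v1b2 (0.62 ± 0.14, adjusted p = 0.00549) and Atp6v1c1 (0.46 ± 0.15, adjusted p = 0.0410), and the membrane V0 subunit Atp6v0a1 (0.44 ± 0.15, adjusted p = 0.0458). Atp6v1e1 was at 89.1, 91.9, 96.4 and 102 CPM in ff;ff and 134, 141, 142 and 175 in Cpt2L-/-, without overlap. Neither transcription factor passed in the edgeR test of these 8 livers. Tfeb was at 7.95, 9.64, 14.03 and 15.3 CPM in ff;ff and 5.48, 6.68, 8.20 and 9.52 in Cpt2L-/- (−0.67 ± 0.24, adjusted p = 0.0635), and Tfe3 was at 14.8, 20.8, 23.6 and 41.4 and 32.5, 32.7, 33.9 and 34.7 CPM (0.40 ± 0.25, adjusted p = 0.281), and in both the groups overlapped. Tfeb was called lower without the filter, by DESeq2, in the fit over 24 libraries and without ff;ff replicate 1, with adjusted p from 0.0211 to 0.249 over the alternatives. Tfe3 was called higher without ff;ff replicate 3, at a log2 fold change of 0.75, with adjusted p from 0.00559 to 0.506.

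Of the 21 calls, 14 held under all 13 alternatives of fit, scaling, filter and left-out library. Lamp2 lost its call without any 1 library except ff;ff replicate 3 and with library totals alone (highest adjusted p 0.200). Psap lost it without any 1 library and without the filter (0.0943). Atp6v0a1 lost it with DESeq2 size factors, without the filter, and without ff;ff replicate 1, 2 or 4 or Cpt2L-/- replicate 1, 2 or 4 (0.138). Atp6v1c1 lost it without ff;ff replicate 2 or 4 or Cpt2L-/- replicate 2, 3 or 4 (0.126). Sgsh lost it in the fit over 24 libraries and without ff;ff replicate 2 or Cpt2L-/- replicate 1, 2 or 4 (0.0865). Hexa lost it without ff;ff replicate 2 or Cpt2L-/- replicate 3 or 4 (0.0696). Grn lost it without Cpt2L-/- replicate 3 or 4 (0.0746).

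**Figure D2:**
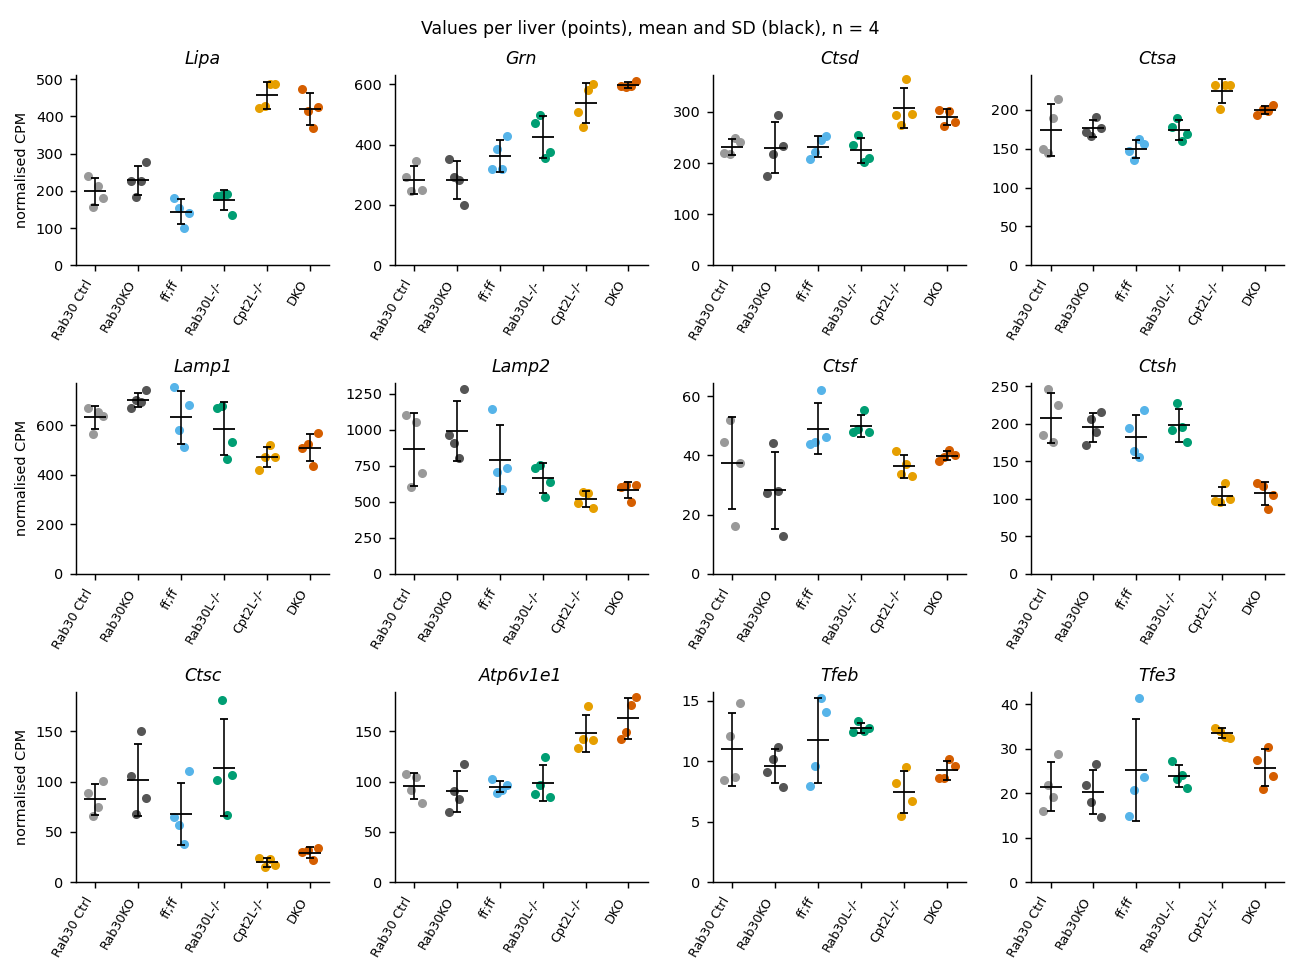
TMM-scaled CPM of 12 members in each of the 24 livers (points, coloured by group), with the group mean and SD in black (n = 4). Lipa in the 8 livers without Cpt2 ran from 368 to 489 CPM, above the 16 others, and Ctsh from 86.2 to 121 CPM, below them.

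DKO livers were compared with their ff;ff littermates to ask what loss of both genes did. This comparison shares the ff;ff livers with the one above, so its values stand beside those and add no independent evidence. In DKO 11 of 50 members (22%) were called higher, against a background of 7.87% of 13389 genes, and 4 (8%) lower, against a background of 8.24%. The members' median log2 fold change was 0.20, against −0.018 for all genes. Scaled by library totals alone, 23 members were called higher and 3 lower, with the median of all genes at 0.17. Without ff;ff replicate 2, 6 were called higher and 4 lower.

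Lipa was at 368, 414, 425 and 474 CPM in DKO and rose 2.91-fold over ff;ff (1.54 ± 0.18, adjusted p = 2.47e-04). Galns followed at 7.48, 10.3, 10.4 and 11.9 CPM (0.95 ± 0.22, adjusted p = 0.0130), then Atp6v1e1 at 142, 149, 176 and 184 CPM (0.77 ± 0.13, adjusted p = 0.00235). These 3 genes did not overlap with ff;ff in any liver, against a background of 20.5% of all genes tested. Grn was at 590.3, 593, 595 and 612 CPM, the tightest group of any member, with a coefficient of variation of 1.60% (0.72 ± 0.15, adjusted p = 0.00649). Atp6v1h, the regulatory subunit H of the V1 part, was at 89.7, 93.9, 109.6 and 122 CPM against 51.9, 63.7, 65.6 and 83.2 in ff;ff (0.65 ± 0.16, adjusted p = 0.0196). Tpp1, Cln3, Arsa, Atp6v1b2, Atp6v1c1 and Ctsa were the other 6 called higher, with log2 fold changes from 0.41 to 0.63.

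The 4 called lower in DKO were Ctsc at 21.8, 30.4, 32.00 and 33.9 CPM (−1.20 ± 0.28, adjusted p = 0.0149), Fuca1 at 34.2, 36.5, 39.9 and 44.3 (−0.85 ± 0.14, adjusted p = 0.00177), Ctsh at 86.2, 105, 117 and 121 (−0.78 ± 0.16, adjusted p = 0.00585) and Gusb at 26.3, 32.3, 32.6 and 41.2 (−0.55 ± 0.15, adjusted p = 0.0311). Lamp2 was at 502, 601, 614 and 617 CPM in DKO (−0.45 ± 0.20, adjusted p = 0.157) and Lamp1 at 435, 508, 522 and 569 CPM (−0.32 ± 0.16, adjusted p = 0.217), and each overlapped with ff;ff. Ctsd, at 273, 281, 302 and 304 CPM, had 0.32 ± 0.13, adjusted p = 0.127, and Ctsf, at 38.3, 39.4, 40.2 and 41.8 CPM, had −0.31 ± 0.15, adjusted p = 0.183. Tfeb was at 8.58, 8.66, 9.57 and 10.1 CPM (−0.35 ± 0.22, adjusted p = 0.315) and Tfe3 at 20.97, 23.9, 27.5 and 30.4 CPM (0.02 ± 0.27, adjusted p = 0.974). Of these 6 genes none passed, though Ctsd did with library totals alone and by DESeq2, and the sign of the Tfe3 value changed in 5 of 13 alternatives.

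Of the 15 calls in DKO, 9 held under all 13 alternatives. Atp6v1b2 lost its call without ff;ff replicate 2 (adjusted p 0.0569). Atp6v1h lost it without DKO replicate 4 or ff;ff replicate 2 or 4 (highest adjusted p 0.0602). Cln3 lost it without DKO replicate 1, 3 or 4 or ff;ff replicate 2 or 4 (0.0857). Atp6v1c1 lost it without any 1 DKO library or ff;ff replicate 2 or 4 (0.100). Ctsa lost it without the filter, any 1 DKO library or ff;ff replicate 2 or 4 (0.126). Gusb lost it with library totals alone, without DKO replicate 1, 2 or 3 or ff;ff replicate 3 or 4 (0.130).

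DKO was also compared with Rab30L-/-, the loss of Cpt2 in livers that lack Rab30. This comparison was added after the data were seen, and it shares no library with Cpt2L-/- against ff;ff. Here 17 of 50 members (34%) were called higher, against a background of 14.9% of 13292 genes, and 9 (18%) lower, against a background of 15.8%. Without DKO replicate 1 or without Rab30L-/- replicate 4 the 26 calls were 17, 10 higher and 7 lower in each case, and with library totals alone 23 were higher and 7 lower, with the median of all genes at 0.14. Of the 16 members called higher in Cpt2L-/- against ff;ff, 9 (56.3%) were called higher here too, which is 52.9% of the 17: Arsa, Atp6v1b2, Atp6v1c1, Atp6v1e1, Cln3, Grn, Hexa, Lipa and Tpp1. Of the 5 called lower, 3 (60%) were called lower here, 33.3% of the 9: Ctsc, Ctsh and Fuca1. Over all genes 51.6% of those called higher and 55.1% of those called lower in the first comparison were called so in the second (41.03% and 41.5% of the second), so the members' shares of the first lay near those of all genes. No member was called in opposite directions. Mitochondrial transcripts took 4.31 to 4.86% of the counts in Rab30L-/- and 6.60 to 7.67% in DKO, without overlap, and the part of this in the differences was not tested. They took 4.66 to 7.86% in ff;ff and 6.10 to 7.32% in Cpt2L-/-.

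Lipa was at 135, 187, 188 and 191 CPM in Rab30L-/- and rose 2.40-fold in DKO (1.26 ± 0.15, adjusted p = 1.60e-04). Of the V-ATPase members 8 of 10 were called higher, and all 10 had a positive value under each of the 3 scalings, with a median of 0.51. Atp6v1h was at 47.1, 52.4, 54.9 and 60.9 CPM in Rab30L-/- (0.95 ± 0.13, adjusted p = 4.32e-04). Atp6ap2, the accessory subunit also known as the prorenin receptor, was at 32.3, 33.5, 34.4 and 44.8 CPM in Rab30L-/- and 52.6, 65.5, 67.2 and 81.2 in DKO (0.88 ± 0.16, adjusted p = 0.00177). The groups did not overlap for any of these genes, against a background of 31.5% of all genes tested. Atp6v1e1, at 84.9, 87.3, 96.9 and 124 CPM in Rab30L-/-, rose too (0.73 ± 0.14, adjusted p = 0.00314). Atp6v1c1 (0.62 ± 0.11, adjusted p = 0.00186) and Atp6v0d1 (0.50 ± 0.13, adjusted p = 0.0155) also rose, as did Scarb2, at 157, 169, 176 and 194 CPM in Rab30L-/- and 232, 245, 288 and 316 in DKO (0.64 ± 0.14, adjusted p = 0.00626).

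The 9 called lower in DKO against Rab30L-/- were 4 proteases, 2 glycosidases, 2 of the lipid class and Tfeb. Ctsc was at 66.4, 102, 106 and 181 CPM in Rab30L-/- (−1.95 ± 0.29, adjusted p = 0.00105), Ctsh at 176, 191, 196 and 228 (−0.88 ± 0.14, adjusted p = 9.53e-04) and Fuca1 at 62.9, 64.6, 74.1 and 79.9 (−0.86 ± 0.13, adjusted p = 6.92e-04). The N-acetylglucosaminidase Naglu was at 29.8, 36.7, 38.6 and 42.1 CPM in Rab30L-/- and 21.4, 22.3, 22.4 and 24.6 in DKO (−0.70 ± 0.13, adjusted p = 0.00193). Ppt1, which removes palmitate from proteins, was at 24.2, 26.6, 27.8 and 28.8 and 13.3, 17.2, 18.97 and 19.2 CPM (−0.64 ± 0.14, adjusted p = 0.00470). In each of these 5 genes every DKO liver lay below every Rab30L-/- liver, against a background of 31.5% of all genes whose livers did not overlap. Lgmn (−0.63 ± 0.16), Npc2 (−0.54 ± 0.12), Tfeb (−0.46 ± 0.14, adjusted p = 0.0237) and Ctsf (−0.32 ± 0.10, adjusted p = 0.0315) completed the 9. Ctsd rose (0.37 ± 0.13, adjusted p = 0.0487). Of the 26 calls, 16 held under all 13 alternatives. The calls of Tfeb (highest adjusted p 0.134), Ctsf (0.407) and Ctsd (0.123) were lost without the filter and in the fit over 24 libraries, those of Tfeb and Ctsf with library totals alone too, and without 4, 7 and 7 of the 8 libraries left out in turn. The calls of Arsa, Atp6v1a, Atp6v1d, Cln3, Gaa, Grn and Hexa were lost without 6, 3, 1, 5, 3, 3 and 8 of them, Rab30L-/- replicate 4 being among them for all 7 but Cln3. Arsa, Cln3 and Gaa also lost theirs in the fit over 24 libraries, and Cln3 and Hexa without the filter.

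**Figure D3:**
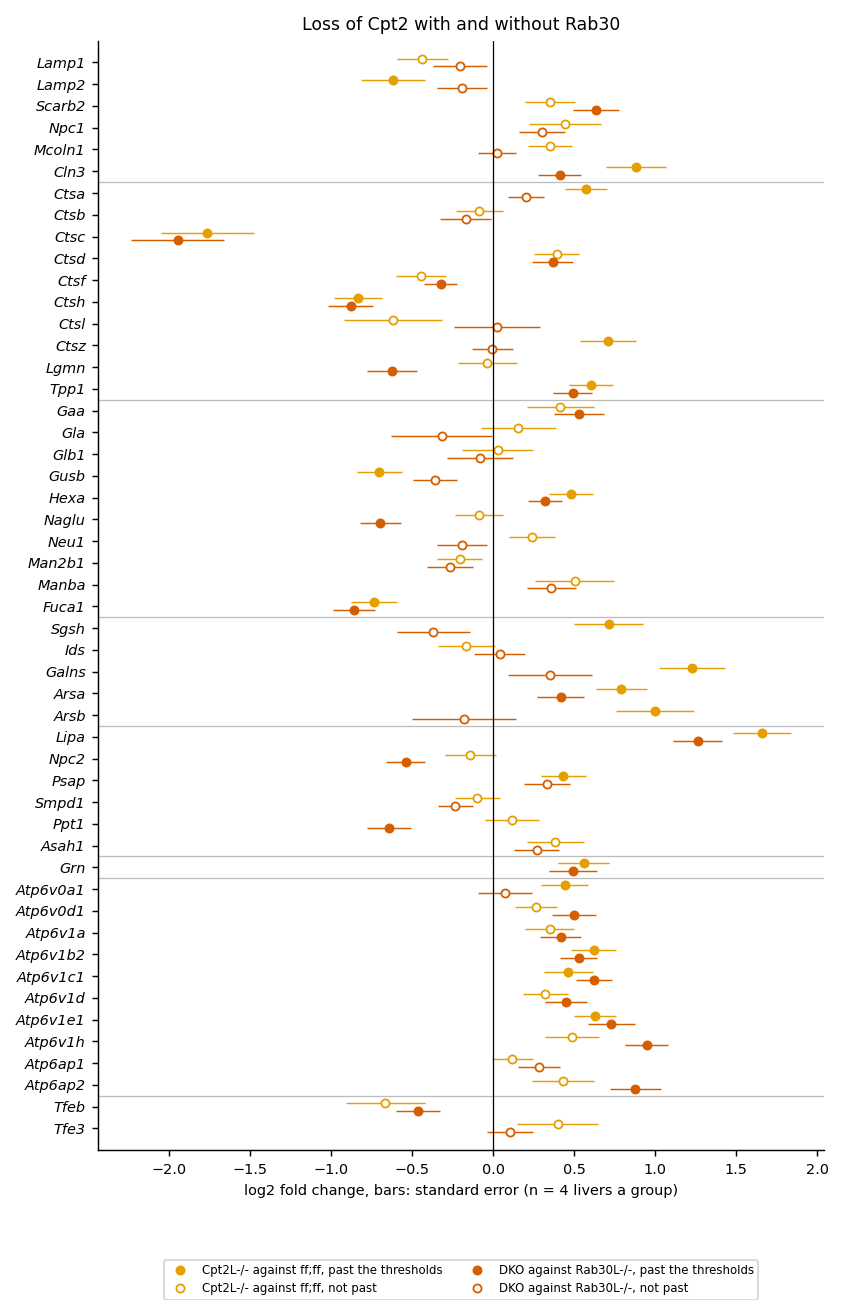
Log2 fold changes (points) and standard errors (bars) of the 50 members for Cpt2L-/- against ff;ff and for DKO against Rab30L-/-, which share no library (n = 4 livers a group). Filled points passed the thresholds, grey lines part the classes, and Lipa, Ctsc, Ctsh, Fuca1 and Atp6v1e1 were filled in both.

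Loss of Rab30 was examined in 3 ways, in Cpt2-deficient livers (DKO against Cpt2L-/-), in otherwise intact livers (Rab30L-/- against ff;ff) and in the whole body (Rab30KO against Rab30 Ctrl). The edgeR test called 0 of 50 members in each of them, against backgrounds of 2.71% of 13306 genes, 0.479% of 13367 and 0.022% of 13656. At an unadjusted p under 0.05 there were 6, 2 and 0 members, against backgrounds of 21.7%, 11.2% and 2.21%. DESeq2's Wald test called 2, 0 and 0, against 7.76%, 2.23% and 0.0732%. At a background under 1% a count of 0 of 50 says nothing about the members. The members' median log2 fold changes were −0.008, 0.11 and 0.02, with −0.003, 0.002 and −0.003 for all genes.

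In DKO against Cpt2L-/- the 6 members at an unadjusted p under 0.05 were Arsb, Sgsh, Ctsz, Tfe3, Neu1 and Ctsc. Arsb, at 3.68, 3.71, 5.46 and 8.66 CPM in DKO, had −0.91 ± 0.28, adjusted p = 0.100, and Sgsh, at 6.28, 7.93, 9.50 and 9.55 CPM in Cpt2L-/- and 4.39, 4.78, 5.79 and 6.31 in DKO, had −0.64 ± 0.20, adjusted p = 0.105. These 2 sulfatases were those that DESeq2 called, with adjusted p of 0.0307 and 0.0489, and in each the 2 groups overlapped. Tfe3 was lower in every DKO liver than in every Cpt2L-/- liver (−0.37 ± 0.13, adjusted p = 0.136), and livers did not overlap for 13.0% of all genes tested. Lipa (−0.11 ± 0.12, adjusted p = 0.639), Lamp2 (0.17 ± 0.13, adjusted p = 0.450), Lamp1 (0.13 ± 0.12, adjusted p = 0.586), Ctsf (0.15 ± 0.11, adjusted p = 0.468) and Ctsd (−0.07 ± 0.12, adjusted p = 0.780) differed by less than 1.2-fold, and the livers overlapped in all 5. Tfeb had 0.32 ± 0.18, adjusted p = 0.331.

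In Rab30L-/- against ff;ff the 2 members at an unadjusted p under 0.05 were Ppt1 (0.59 ± 0.16, adjusted p = 0.168) and Naglu (0.41 ± 0.14, adjusted p = 0.300). Ppt1 was at 15.1, 15.5, 17.5 and 23.1 CPM in ff;ff, and all 4 Rab30L-/- livers were above that range. Livers did not overlap for 6.38% of all genes tested. Lipa (0.28 ± 0.19, adjusted p = 0.609), Lamp2 (−0.25 ± 0.22, adjusted p = 0.712), Lamp1 (−0.11 ± 0.19, adjusted p = 0.873), Ctsd (−0.05 ± 0.14, adjusted p = 0.935) and Ctsf (0.02 ± 0.14, adjusted p = 0.977) did not pass. Tfeb was at 12.4, 12.5, 12.8 and 13.4 and Tfe3 at 21.2, 23.2, 24.2 and 27.2 CPM in Rab30L-/-, within the range of ff;ff in both cases.

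In Rab30KO against Rab30 Ctrl every member had an adjusted p near 1 (edgeR). Lipa was at 156, 182, 214 and 241 CPM in Rab30 Ctrl and 183, 227, 228 and 278 in Rab30KO (0.20 ± 0.18), Lamp2 at 600.2, 701, 1054 and 1103 and 802, 909, 966 and 1284 (0.19 ± 0.23), and Ctsd at 218, 219.8, 240.5 and 249 and 174, 218, 234 and 295 (−0.01 ± 0.18). Lamp1, at 564, 638, 651 and 669.5 and 669.8, 694, 701 and 740.3 CPM, had 0.15 ± 0.14 and was the only member of the 50 whose livers did not overlap, against a background of 1.31% of all genes tested, with less than 1 CPM between the groups. Ctsf ranged widely in both groups, with 15.99, 37.4, 44.5 and 51.9 CPM in Rab30 Ctrl and 12.8, 27.3, 28.1 and 44.3 in Rab30KO (−0.42 ± 0.42). Tfeb had −0.20 ± 0.23 and Tfe3 had −0.09 ± 0.22.

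Whether loss of Rab30 acted differently with and without Cpt2 was tested as an interaction over the 16 livers of the 4 groups with floxed alleles. Ppt1 alone among the 50 passed, against a background of 4.06% of 14063 genes, and 9 members (18%) had an unadjusted p under 0.05, against a background of 21.7%. The log2 difference of Ppt1 was −0.75 ± 0.21 (adjusted p = 0.0480): Rab30L-/- livers lay above ff;ff, while DKO livers, at 13.3, 17.2, 18.97 and 19.2 CPM, overlapped with Cpt2L-/- livers at 17.8 to 20.98 CPM. The call was lost with DESeq2 size factors, without the filter, in the fit over 24 libraries and without 14 of the 16 libraries, the exceptions being ff;ff replicate 1 and Rab30L-/- replicate 1. DESeq2's Wald test called Ppt1, Sgsh, Ctsz and Naglu, all negative, which is 8% of the members against a background of 7.68%. In the same edgeR test all 10 Kupffer cell markers had a negative value, with a median of −0.94 and 5 of 10 at an unadjusted p under 0.05, and none was called. Their part in the Ppt1 value was not tested. Ppt1 lies at chr4:122836242-122859175, 14.9 Mb from Cpt2 on chromosome 4, and Ctsc lies 4.43 Mb from Rab30 on chromosome 7.

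**Figure D4:**
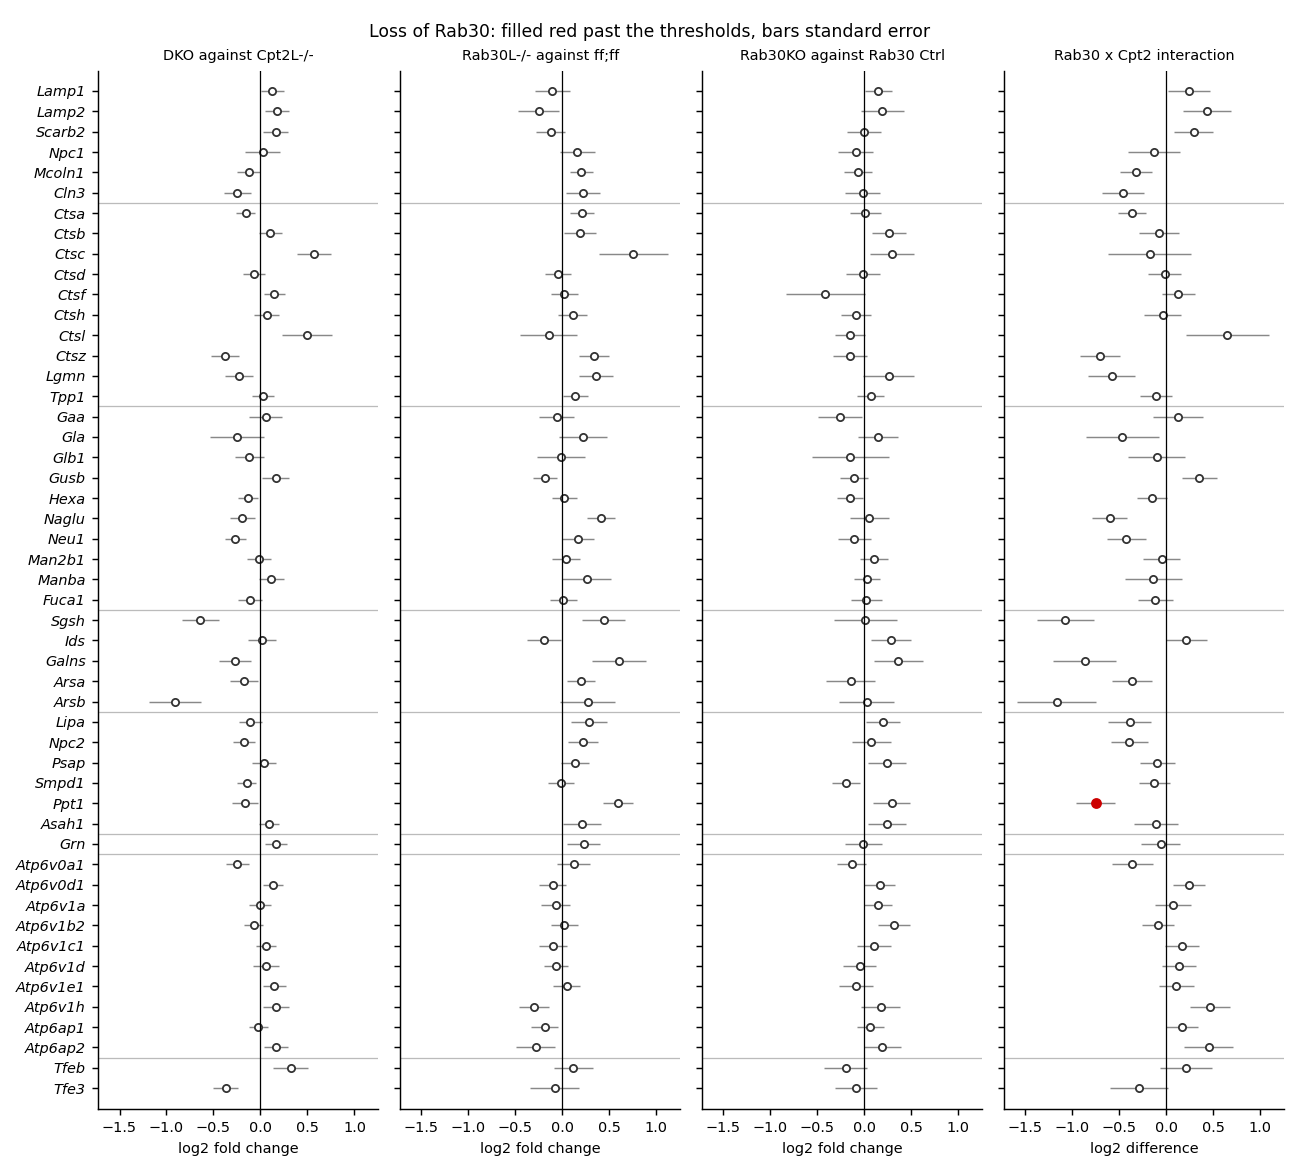
Log2 differences (points) and standard errors (bars) of the 50 members for DKO against Cpt2L-/-, Rab30L-/- against ff;ff, Rab30KO against Rab30 Ctrl and the interaction. Ppt1 in the interaction is the only filled red point, which marks an adjusted p under 0.05 with at least 1.2-fold.

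The 7 members with the 8-letter motif were placed beside the rest as a description. In Cpt2L-/- against ff;ff their log2 fold changes ran from 0.16 (Gla) to 0.88 (Cln3) with a median of 0.35, and the 26 members with a window and no CACGTG had a median of 0.34. Of the 7, Cln3 and Ctsa were called higher, and of the 26, 9 were called higher and 4 lower, with backgrounds of 11.9% each way. In DKO against Rab30L-/- the medians were 0.37 and 0.06, and Atp6v0d1, Atp6v1a, Cln3 and Ctsd were called higher among the 7, with 8 higher and 5 lower among the 26 and backgrounds of 14.9% and 15.8%. The 16 members with CACGTG, the 7 included, had a median of 0.31 with 4 higher and none lower in the first comparison. In the second it was 0.02, with 6 higher and 3 lower. In DKO against ff;ff, with backgrounds of 7.87% and 8.24%, the 7 had a median of 0.34 with 2 higher and none lower. The 16 had 0.14, with 3 higher, and the 26 had 0.09, with 4 higher and 3 lower. Lipa, the member with the largest rise in Cpt2L-/-, and Grn had neither motif in the windows searched, which says only that these letters are not there.

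The wider pathway was read from lists of other genes, each beside the same backgrounds (11.9% higher and 11.9% lower in Cpt2L-/-, 7.87% and 8.24% in DKO against ff;ff, 14.9% and 15.8% in DKO against Rab30L-/-). In the V-ATPase list of 14 other subunits, 10 passed the filter, and Atp6v0d2 (−2.33 ± 0.49, adjusted p = 0.00396), Atp6v0e2 (−2.37 ± 0.41, adjusted p = 0.00106) and Tcirg1 (−0.73 ± 0.15, adjusted p = 0.00315), the a3 form of the membrane subunit, fell in Cpt2L-/- while none rose (4 rose with library totals alone). In DKO against ff;ff only Tcirg1 was called (−0.76 ± 0.16, adjusted p = 0.00759), 1 of 10 (10%). In DKO against Rab30L-/- Atp6v0d2 (−3.57 ± 0.98, adjusted p = 0.0258) and Tcirg1 (−0.999 ± 0.15, adjusted p = 7.42e-04) fell and Atp6v0e rose (0.59 ± 0.14, adjusted p = 0.00755). Tcirg1 was at 43.8, 50.8, 52.03 and 66.2 CPM in ff;ff and 30.1, 31.1, 33.4 and 35.05 in Cpt2L-/-. The other 2 that fell were below 8 CPM in all livers of these 4 groups, and Atp6v0e2 had a value of 0.33 in DKO against Rab30L-/-.

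**Figure D5:**
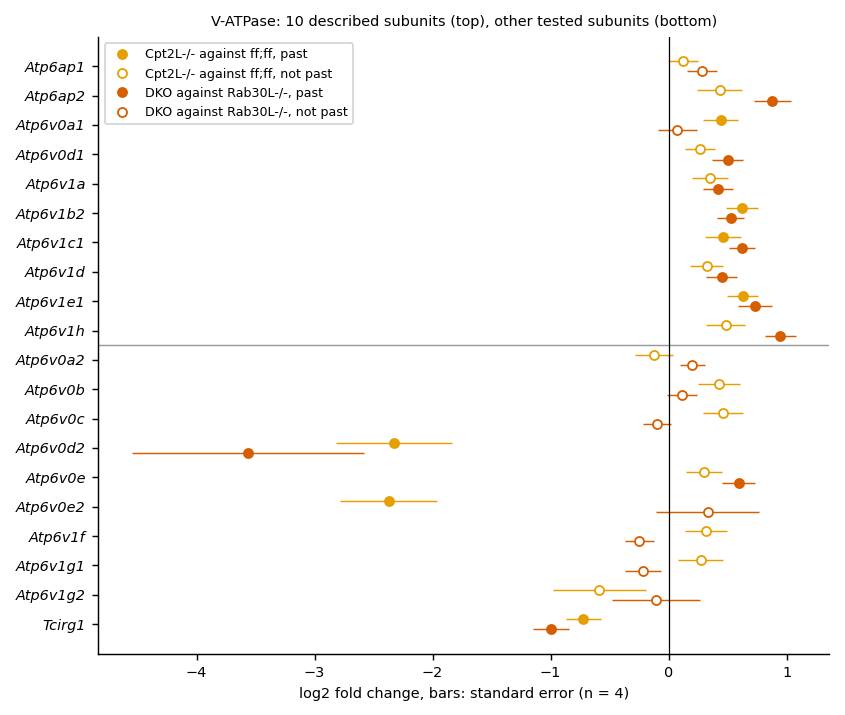
Log2 fold changes (points) and standard errors (bars) of the 10 V-ATPase members (above the line) and the other subunits that passed the filter (below it) for Cpt2L-/- against ff;ff and DKO against Rab30L-/-. All 20 values above the line were positive, and the largest falls below it were those of Atp6v0d2 and Atp6v0e2.

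Of 24 other lysosomal enzymes and cofactors, 3 rose (12.5%) and 2 fell (8.33%) in Cpt2L-/- against ff;ff, near the background. In DKO 2 rose (8.33%) and 3 fell (12.5%) against ff;ff, and 2 rose (8.33%) and 10 fell (41.7%) against Rab30L-/-. The iduronidase Idua (1.55 ± 0.17, adjusted p = 3.75e-05) and the carboxypeptidase Scpep1 (1.21 ± 0.15, adjusted p = 9.21e-05) rose most in Cpt2L-/-, and Gm2a (−1.85 ± 0.16, adjusted p = 7.21e-06), the activator protein of ganglioside GM2 breakdown, fell most. Gm2a was at 44.7, 47.4, 55.8 and 69.3 CPM in ff;ff and 13.8, 15.2, 15.3 and 16.05 in Cpt2L-/-, so it fell while Hexa rose. Of 19 other membrane proteins 5 rose (26.3%) and 2 fell (10.5%) in Cpt2L-/-, with the same counts in DKO against ff;ff, and 7 rose (36.8%) and 4 fell (21.1%) in DKO against Rab30L-/-. The tetraspanin Cd63 rose from 1.83, 3.13, 3.17 and 3.42 CPM in ff;ff to 15.95, 23.98, 24.4 and 33.9 in Cpt2L-/- (3.06 ± 0.25, adjusted p = 5.71e-06).

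Of 12 genes that sort proteins to the lysosome, 6 rose (50%) and none fell in Cpt2L-/-, 5 rose (41.7%) and 1 fell (8.33%) in DKO against ff;ff, and 4 rose (33.3%) and 1 fell in DKO against Rab30L-/-. The 6 included the sorting receptor Sort1 (1.35 ± 0.17, adjusted p = 1.15e-04), the Golgi adaptor Gga2 (1.12 ± 0.18, adjusted p = 5.90e-04) and both mannose 6-phosphate receptors, M6pr (0.61 ± 0.14, adjusted p = 0.00696) and Igf2r (0.55 ± 0.16, adjusted p = 0.0267). Sort1 was at 8.92, 11.4, 11.8 and 15.5 CPM in ff;ff, 29.2, 29.3, 31.7 and 32.2 in Cpt2L-/- and 15.7, 17.2, 20.1 and 20.6 in DKO. It was the 1 gene of all the lysosomal lists called in DKO against Cpt2L-/- (−0.72 ± 0.12, adjusted p = 0.0147), against a background of 2.71% of all genes tested. Sort1 was lower in every DKO liver there, and livers did not overlap for 13.0% of all genes tested. Of 9 regulators and reported targets of Tfeb and Tfe3, 4 rose (44.4%) in Cpt2L-/- and 6 (66.7%) in both DKO comparisons with Cpt2-intact livers, and none fell. They included the transmembrane glycoprotein Gpnmb, at 0.0874, 0.190, 0.488 and 0.710 CPM in ff;ff and 22.3, 23.4, 28.2 and 29.3 in Cpt2L-/- (6.01 ± 0.34, adjusted p = 2.99e-07), the autophagy receptor Sqstm1 (1.19 ± 0.20, adjusted p = 7.96e-04) and the GTPase Rragd (1.26 ± 0.31, adjusted p = 0.00997). In Rab30L-/- against ff;ff and in Rab30KO against Rab30 Ctrl none of these 5 lists had a call by edgeR, against backgrounds of 0.479% and 0.022%. At an unadjusted p under 0.05 there were 7 and 0 genes, against backgrounds of 11.2% and 2.21%. DESeq2 called 0 and 0, against backgrounds of 2.23% and 0.0732%. At edgeR backgrounds this low a lack of calls says nothing about these lists. In the interaction 3 of 24 enzymes (12.5%) and 1 of 19 membrane proteins (5.26%) were called negative and 1 of 10 V-ATPase subunits (10%) positive, against a background of 4.06%, and the other two lists had none. The calls included Man2b2 and Glmp, both negative, and Atp6v0e2, positive.

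Macrophages are rich in lysosomes, so their markers stand beside these results. The summed CPM of 10 Kupffer cell markers ran from 220 to 403 in ff;ff, from 279 to 794 in Rab30L-/-, from 178 to 268 in Cpt2L-/- and from 169 to 204 in DKO. Of the 10, 3 fell in Cpt2L-/- and 6 in DKO against ff;ff, 9 fell in DKO against Rab30L-/-, and none was called in Rab30L-/- against ff;ff, where 4 were higher at an unadjusted p under 0.05. The sum of 9 markers of recruited myeloid cells was 20.1 to 49.1 in ff;ff, 28.7 to 87.1 in Rab30L-/-, 46.4 to 76.9 in Cpt2L-/- and 41.4 to 82.4 in DKO. Of these 9, 4 passed the filter in Cpt2L-/- against ff;ff, with a median log2 fold change of −0.24. Cd68, itself a lysosomal glycoprotein, was called higher (2.60 ± 0.22, adjusted p = 6.23e-06), while Lyz2 (−0.37 ± 0.28), Ccr2 (−0.34 ± 0.42) and Trem2 (−0.14 ± 0.57) did not pass. In DKO against Rab30L-/- 4 were tested, with a median of −0.46, Cd68 called higher (2.44 ± 0.37) and Lyz2 lower (−1.27 ± 0.30). The median Kupffer cell sum was 398 in Rab30L-/-, 279 in ff;ff, 211 in Cpt2L-/- and 182 in DKO, and Rab30L-/- and Cpt2L-/- livers each overlapped with ff;ff. Mean CPM of Ctsc, Naglu, Ppt1, Lgmn and Npc2 was also above ff;ff in Rab30L-/- and below it in DKO. That of Ctsc and Ctsh was below ff;ff in Cpt2L-/- and DKO. The part of these cells in those falls was not tested. In Rab30KO and Rab30 Ctrl the Kupffer cell sums were 325 to 1599 and 436 to 736.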

How the data were processed

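RNA-seq was made by the authors from 24 whole livers, 4 in each of 6 genotype groups. Per the labels, the submitters' processing notes name HISAT2, DESeq2 and GRCm38 (mm10), without versions, and the strand setting is not given in the sources used here. The deposited counts are raw reads per gene (54532 genes, 11801027 to 24497738 per library), and the deposited FPKM values were computed by the authors per gene length. They followed the counts divided by gene length and DESeq2 size factors, with a coefficient of variation of 0.21% for the ratio over 14134 genes. FPKM served only for levels between genes.

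Genes were filtered with filterByExpr and tested in edgeR 4.0.16 (R 4.3.3) with TMM scaling, glmQLFit (robust) and glmQLFTest on the groups compared, with Benjamini-Hochberg adjustment over all genes tested. Calls needed an adjusted p under 0.05 and 1.2-fold. CPM values use TMM over 24 libraries. DESeq2 1.42.0, other scalings, no filter, a fit over 24 libraries, no fold threshold and leaving out each library were alternatives. In data simulated for the 7 comparisons with a single fold size, above the 1.2-fold threshold, the fit recovered 26.5% to 64.5% of changed genes. Smaller changes were not simulated. Libraries of a group all differed beyond counting noise. p-values cover the spread between these livers.

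The 50 members and all lists were chosen with earlier results of these data known. Named are members past the thresholds, the 5 largest rises and falls with each liver's value, and fixed genes (Lamp1, Lamp2, Lipa, Ctsd, Ctsf, Tfeb and Tfe3), with other genes by list. Promoter sequences came from RefSeq (GRCm38.p6). Replicate numbers follow accession order and pair no samples. A few results on genes of the other lists are not reported here.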

Additional observations from a re-analysis of the deposited data

Results flagged for a closer look

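Within each group of 4 livers, the highest or lowest value was compared with the others by Dixon's criterion (the gap to the nearest value over the whole range, at the 95% critical value for 4 samples). It was applied to 222 sets, 37 of the members in 6 groups, and 16 stood apart, where chance gives about 1 in 20. The other members were not compared in this way, among them Ctsl, whose high value in ff;ff replicate 3 is given above.

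Cpt2L-/- replicate 3 was the highest of its group for Lgmn (67.8 CPM), Ctsh (120.8 CPM), Hexa (88.0 CPM) and Atp6v0d1 (90.2 CPM), and replicate 2 was the lowest for Ctsa (201.0 CPM). Rab30L-/- replicate 4 was the lowest of its group for Lipa (134.8 CPM), Tpp1 (93.76 CPM) and Atp6v1a (41.3 CPM). In the same group replicate 1 was the highest for Atp6ap2 (44.77 CPM) and replicate 3 for Ctsf (55.44 CPM). DKO replicate 4 was the lowest of its group for Gaa (148.8 CPM) and the highest for Npc2 (40.67 CPM), and DKO replicate 3 the lowest for Lamp2 (501.6 CPM). The ff;ff replicate 3 was the highest of its group for Ctsf (61.97 CPM), Rab30KO replicate 4 the lowest for Atp6v0d1 (55.94 CPM), and Rab30 Ctrl replicate 1 the lowest for Sgsh (3.131 CPM).

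The effect of Rab30 loss on Ppt1 differed between livers with and without Cpt2 by the interaction test (log2 difference −0.7516, edgeR adjusted p = 0.0480), but the call was lost in 17 of 21 alternatives, among them 14 of the 16 that left out 1 library.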

How the results depend on the processing

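With library totals alone 34 members were called in Cpt2L-/- and 26 in DKO against ff;ff. The calls over all genes went from 1576 higher and 1579 lower to 3614 and 958 in Cpt2L-/-, from 1054 and 1103 to 2002 and 696 in DKO against ff;ff, from 1984 and 2097 to 3066 and 1466 in DKO against Rab30L-/-, from 183 and 177 to 117 and 315 in DKO against Cpt2L-/-, and from 310 and 261 to 191 and 373 in the interaction, while the median of all genes moved by over 0.1. In DKO against Cpt2L-/- 2 members were called without the filter and 2 by DESeq2. The interaction had 0 with DESeq2 size factors, without the filter and in the fit over 24 libraries, 3 with library totals alone and 4 by DESeq2. Leaving out 1 library gave 14 to 24 members in Cpt2L-/- and 10 to 17 in DKO against ff;ff, 17 to 23 in DKO against Rab30L-/-, 0 to 1 in DKO against Cpt2L-/- (1 without DKO replicate 1), 0 to 1 in Rab30L-/- against ff;ff (1 without ff;ff replicate 1) and 0 to 2 in the interaction. The cause of these changes was not tested. No called member changed sign. No paired analysis was possible because replicate numbers follow accession order. Depth limits Gla, Sgsh, Arsb and Glb1 most, which had the fewest reads (mean CPM over 24 livers 4.53, 6.39, 6.81 and 8.21).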
